A study of Homo sapiens with 6 samples.

Results

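The BCL2 family genes BCL2, BCL2L1, MCL1, BAK1, BID, BAD, BIK, BMF and BCL2L11, together with CYCS, which encodes cytochrome c, were followed in U251 cells given extra STING. The 10 genes were taken by symbol from the 42307 genes of the deposited tables, where each symbol occurred once. U251 is an established human glioblastoma line, labelled wild type and grown in DMEM with fetal bovine serum. RNA was taken 3 days after transfection with 1 ug of plasmid per well, which was a negative control in 3 libraries and drove STING overexpression in the other 3. STING is the adaptor of the pathway that senses DNA in the cytosol. The question addressed was whether the transcripts of the mitochondrial apoptosis machinery differed between these groups.

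Proteins of the BCL2 family decide whether the outer membrane of the mitochondrion stays closed. Pro-survival members such as BCL2, BCL2L1 (BCL-XL) and MCL1 hold the other members in check. The effectors BAK1 and BAX assemble into pores, and the BH3-only proteins, named after the short BH3 helix through which family members bind each other, relay stress signals by engaging the pro-survival proteins or the effectors. Through an open pore cytochrome c, otherwise an electron carrier of the respiratory chain, reaches the cytosol, where it joins APAF1 to form the apoptosome that activates caspases. Several of these proteins are set in activity after translation, BID by cleavage, BAD by phosphorylation and MCL1 by rapid turnover, and only RNA was measured here.

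The BH3 helix is what the 9 family members share, and the coding bases of its core are shown for each. The coding sequence of each was searched for a leucine codon, any 3 codons, a codon for glycine, alanine or serine, and an aspartate codon. The 18 bases below are GRCh38 sequence of the GENCODE v29 transcripts, all in coding exons, written in the direction of the gene, with the small residue's codon and the aspartate codon in capitals. PMAIP1, a further BH3-only gene whose values appear below, is given for comparison.
BCL2 (chr18:63318361-63318378, minus strand): ctccgccaggccGGCGAC
BCL2L1 (chr20:31721934-31721951, minus strand): ctgagggaggcaGGCGAC
MCL1 (chr1:150578877-150578894, minus strand): ttacgacgggttGGGGAT
BAK1 (chr6:33575399-33575416, minus strand): ctcgccatcatcGGGGAC
BID (chr22:17739427-17739444, minus strand): ctcgcccaggtcGGGGAC
BAD (chr11:64271634-64271651, minus strand): ctccggaggatgAGTGAC
BIK (chr22:43127716-43127733, plus strand): ctggcctgcatcGGGGAC
BMF (chr15:40104207-40104224, minus strand): cttcagtgcattGCAGAC
BCL2L11 (chr2:111150103-111150120, plus strand): ttgcggcgtattGGAGAC
PMAIP1 (chr18:59902673-59902690, plus strand): ctcaggagatttGGAGAC

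The codon before the aspartate, where the search allowed only glycine, alanine or serine, was for glycine in 7 of the 9 members. It was for alanine in BMF and for serine in BAD. BID held 2 matches, and the one with glycine was kept by rule, so its glycine is no separate observation. Over the 36 pairs of members the identical bases numbered 7 to 15, with a median of 9, and the closest pair was the effector BAK1 and the BH3-only gene BIK. Part of this identity was set by the search, which required the leucine, the small residue and the aspartate. How many bases unrelated genes would share under the same search was not tested. CYCS encodes no BCL2 family protein and was not part of this search.

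The libraries held 71498790 to 76566375 counts. Levels are given as CPM, counts scaled to the TMM-adjusted library size. A gene with 3 counts would stand at 0.0392 to 0.042 CPM, the detection floor as far as counting error goes. STING1 itself stood at 34.8 ± 3.15 CPM (SD, n = 3) in control and 52.8 ± 4.79 CPM in STING libraries, a 1.51-fold rise (adjusted p = 0.00221, edgeR quasi-likelihood test with Benjamini-Hochberg adjustment over all tested genes). All estimates of the 11 tested glioma and astrocyte markers were negative, 1 passed the test (GFAP, log2 fold change −0.86, adjusted p = 0.033, not past the threshold without control library 1 or 3 or STING library 1, adjusted p of 0.0773, 0.0987 and 0.107, or in 3 other alternatives), and their summed level was 4384 to 4549 CPM in control and 4131 to 4272 CPM in STING libraries. Over all 21679 tested genes, 10794 estimates were negative and 0.89% passed as lower. The 14 markers of blood, epithelial, endothelial, neuronal, oligodendrocyte and liver cells found in the tables summed to 11.9 to 17.7 CPM in control and 7.95 to 12.7 CPM in STING libraries, none passed the test, and none was at or under 3 counts in every library. The part of these shifts in the results below was not tested, and in bulk RNA fewer cells of a type and less RNA per cell cannot be told apart. Whether the 3 libraries of a group came from separate cultures is not stated in the labels. The p-values therefore reflect the spread of these libraries alone, and that spread may be technical.

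All 10 genes were detected in all 6 libraries of U251 cells, and none of them passed the test for a change with the STING plasmid. CYCS was 1.11-fold higher and BID 0.872-fold as high, the pro-survival genes and BAK1 lay between 1.00-fold and 1.06-fold, and BIK, at 0.949 and 0.678 CPM on average, had the widest interval. All 10 passed the filter on low counts, and 0 of 10 passed an adjusted p of 0.05 by edgeR, where 1.49% of the 21679 tested genes did (0.604% higher and 0.89% lower). At an unadjusted p under 0.05 there were 2 (CYCS and BID), against 14.4% of all tested genes. The groups did not overlap for CYCS on the higher side and for BID and BMF on the lower side, against 10.1% and 9.73% of all tested genes (19.9% in either direction). Among genes with a mean of at least 10 CPM, which include CYCS and BID but not BMF, the share was 27.4% in either direction. Of the 10 estimates 5 were positive and 5 negative, and the median estimate was −0.02 on the log2 scale, beside 0.00103 over all tested genes. The 95% interval held 0 for 8 genes, and for 6 of the 10 it lay wholly within 0.8-fold to 1.25-fold. DESeq2 called 1 member, CYCS, as higher, where it called 8.9% of the genes it tested and 3.62% as higher, and it gave BIK no adjusted p. Without STING library 1 edgeR also called CYCS as higher, where it called 3.27% of genes and 1.15% as higher. With limma-voom 0 members were called, where 0.632% of genes were called and 0.268% as higher.

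**Figure D1:**
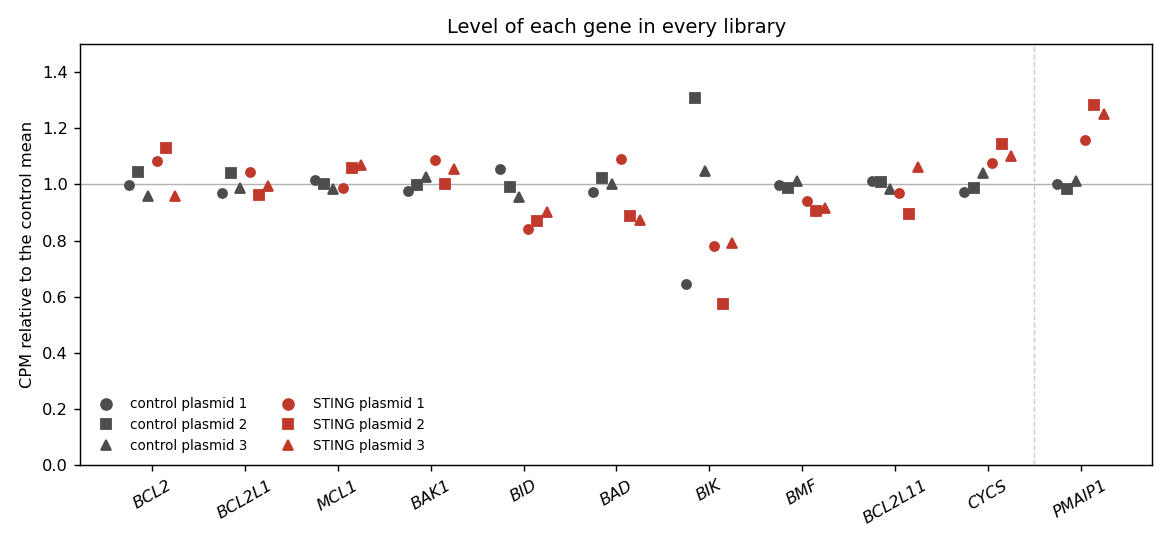
Level of each gene in every library, as CPM divided by the mean of the 3 control libraries, on a linear axis that starts at 0. Grey marks are control and red marks STING libraries, with 1 marker shape per replicate number. CYCS and PMAIP1 are higher and BID and BMF lower in all 3 STING libraries than in any control library, and BIK has the widest spread.

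Among the pro-survival genes, MCL1 encodes a protein of rapid turnover. MCL1 (ENSG00000143384, GRCh38 chr1:150574551-150579738, minus strand) stood at 357.6, 351.9 and 346.0 CPM in control libraries 1, 2 and 3 and at 347.2, 371.8 and 376.3 CPM in STING libraries 1, 2 and 3. STING libraries 2 and 3 were above every control library, but STING library 1 fell inside the control range. The means of 351.8 ± 5.78 and 365.1 ± 15.6 CPM (SD, n = 3) gave a log2 fold change of 0.05 (SE 0.0443, adjusted p = 0.666, edgeR), with a 95% interval of 0.972-fold to 1.11-fold.

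BCL2L1 encodes BCL-XL and, by alternative splicing, the short form BCL-XS, which the gene-level counts do not separate. BCL2L1 (ENSG00000171552, chr20:31664452-31723989, minus strand) stood at 146.9, 157.5 and 149.5 CPM in the control and at 158.0, 145.4 and 150.6 CPM in the STING libraries. The 2 groups covered nearly the same range. Both means were 151.3 CPM (SD 5.53 and 6.33, n = 3), the log2 fold change was 0.000272 (SE 0.0483, adjusted p = 0.999, edgeR) and the 95% interval ran from 0.932-fold to 1.07-fold. The antisense gene ABALON, whose model overlaps that of BCL2L1 on the opposite strand, had 3033 counts over the 6 libraries against 68068 for BCL2L1.

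BCL2, the founding member of the family, was the scarcest of the 3 pro-survival members. BCL2 (ENSG00000171791, chr18:63123346-63320128, minus strand) was counted 557, 562 and 549 times in the control and 632, 663 and 554 times in the STING libraries. That was 7.58, 7.93 and 7.27 CPM against 8.23, 8.58 and 7.29 CPM, so STING libraries 1 and 2 were the highest and STING library 3 lay beside the lowest control. The log2 fold change was 0.08 (SE 0.116, adjusted p = 0.843, edgeR), with a wider 95% interval of 0.892-fold to 1.25-fold.

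BAK1, the effector that sits in the mitochondrial outer membrane, was measured at 47.9, 49.1 and 50.5 CPM in the control and at 53.5, 49.3 and 51.9 CPM in the STING libraries. BAK1 (ENSG00000030110, chr6:33572547-33580293, minus strand) was thus highest in STING libraries 1 and 3, while STING library 2 lay between control libraries 2 and 3. Means of 49.2 ± 1.27 and 51.5 ± 2.11 CPM (SD, n = 3) gave a log2 fold change of 0.07 (SE 0.0547, adjusted p = 0.659, edgeR; 95% interval 0.967-fold to 1.14-fold). Its partner effector BAX, which moves to the membrane from the cytosol, was outside the 10 genes and was chosen after its values were seen. BAX stood at 61.6, 67.0 and 75.0 CPM in the control and at 65.1, 58.8 and 59.9 CPM in the STING libraries, with a log2 fold change of −0.15 (SE 0.068, adjusted p = 0.337, edgeR). The BAX groups overlapped through STING library 1, and the test did not pass.

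Of the 5 BH3-only members among the 10 genes (BID, BAD, BIK, BMF and BCL2L11), BID had the smallest p. BID links death receptors to mitochondria once caspases cut it, and BID (ENSG00000015475, chr22:17734138-17774495, minus strand) stood at 29.2, 27.4 and 26.4 CPM in the control and at 23.3, 24.1 and 25.0 CPM in the STING libraries. Every STING library was below every control library. The means of 27.7 ± 1.42 and 24.1 ± 0.845 CPM (SD, n = 3) differed by −0.20 on the log2 scale (SE 0.0691, 95% interval 0.787-fold to 0.965-fold). The difference had an unadjusted p of 0.0112, 6.31% of tested genes had a smaller one, and it did not pass the test (adjusted p = 0.176, edgeR). The exact two-sided permutation test gave p = 0.1, the smallest that 3 against 3 libraries allow. Over the 17 alternatives run for BID the log2 fold change stayed between −0.23 and −0.16, with adjusted p of 0.0779 to 0.477.

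BAD, which binds BCL2 and BCL2L1 unless phosphorylated, had the highest level per length of the 5 BH3-only members. BAD (ENSG00000002330, chr11:64269830-64284665, minus strand) stood at 29.3, 30.8 and 30.2 CPM in the control and at 32.9, 26.7 and 26.3 CPM in the STING libraries. STING library 1 held the highest value of the 6 and STING libraries 2 and 3 the lowest, so the coefficient of variation was 2.45% in control and 12.9% in STING libraries. The log2 fold change was −0.07 (SE 0.0813, adjusted p = 0.776, edgeR; 95% interval 0.843-fold to 1.07-fold). Without STING library 1 it was −0.18 (adjusted p = 0.133, in a range of 0.133 to 0.999 over its 17 alternatives). The longest BAD transcript has 66.3% GC, and with a correction for GC content the log2 fold change was −0.000249 (adjusted p = 0.999, edgeR). The GPR137 model overlaps BAD on the opposite strand and held 19762 counts against 13206 for BAD. The sum of both was 75.2 ± 1.22 CPM in control and 71.4 ± 5.82 CPM in STING libraries, also with overlapping groups.

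BCL2L11 (BIM) is a BH3-only protein that can bind all pro-survival members and activate the effectors directly. BCL2L11 (ENSG00000153094, chr2:111119378-111168445, plus strand) stood at 32.9, 32.8 and 32.0 CPM in the control and at 31.5, 29.1 and 34.6 CPM in the STING libraries. The STING libraries spanned the control values on both sides, and the log2 fold change was −0.04 (SE 0.0688, adjusted p = 0.889, edgeR; 95% interval 0.881-fold to 1.08-fold). The long noncoding gene MIR4435-2HG overlaps BCL2L11 on the opposite strand and held 26722 counts against its 14458, and since the strand setting of the counting is not given in the sources used here, reads of the 2 genes cannot be told apart where they overlap. Their sum was 91.47 ± 1.449 CPM in control and 91.48 ± 4.04 CPM in STING libraries.

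BMF, a BH3-only protein tethered to the actin cytoskeleton in resting cells, stood at 6.98, 6.90 and 7.07 CPM in the control and at 6.57, 6.32 and 6.41 CPM in the STING libraries. BMF (ENSG00000104081, chr15:40087890-40108879, minus strand) had the smallest coefficient of variation of the 10 genes within either group (1.20% and 1.97%), and the groups did not overlap. At 487 to 534 counts per library, counting error alone would spread the values more widely. The narrow groups are therefore no sign of precision. The size was small, with means of 6.98 ± 0.0835 and 6.44 ± 0.127 CPM (SD, n = 3) and a log2 fold change of −0.12 (SE 0.118). It did not pass the test (adjusted p = 0.74, edgeR, and p = 0.1 by the exact two-sided permutation test), and the 95% interval of 0.775-fold to 1.10-fold held no change.

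BIK, a BH3-only protein of the endoplasmic reticulum, had the fewest counts of the 10. BIK (ENSG00000100290, chr22:43110750-43129712, plus strand) was counted 45, 88 and 75 times in the control and 57, 42 and 57 times in the STING libraries, which is 0.612, 1.24 and 0.993 CPM against 0.742, 0.543 and 0.750 CPM. Control library 1 lay among the STING libraries. The coefficient of variation in the control group was 33.4%, the log2 fold change of −0.48 had an SE of 0.337 (adjusted p = 0.583, edgeR), and the 95% interval of 0.436-fold to 1.17-fold was the widest of the 10.

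CYCS had the smallest p of the 10 genes. CYCS (ENSG00000172115, chr7:25118656-25125260, minus strand) was counted 27386, 26786 and 30042 times in the control and 31635, 33846 and 32019 times in the STING libraries, or 372.6, 378.2 and 397.8 CPM against 411.8, 437.8 and 421.4 CPM. All 3 STING libraries were above all 3 control libraries. The means were 382.9 ± 13.2 and 423.7 ± 13.1 CPM (SD, n = 3), a log2 fold change of 0.15 (SE 0.0441) with a 95% interval of 1.04-fold to 1.18-fold. The unadjusted p was 0.00441, 3.80% of tested genes had a smaller one, and the difference did not pass the test (adjusted p = 0.116, edgeR; exact two-sided permutation p = 0.1). It did pass with DESeq2 (adjusted p = 0.016) and without STING library 1 (log2 fold change 0.17, adjusted p = 0.0374), in a range of 0.016 to 0.38 over 17 alternatives. Counts of the 19 CYCS pseudogenes in the tables came to 0.379% of those of CYCS.

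The libraries differed in base composition. The trend of log2 level per 10% of GC content was 0.0119 to 0.0414 in control and 0.0278, −0.063 and −0.0338 in STING libraries 1, 2 and 3, and the longest CYCS transcript has 41.6% GC. STING libraries 2 and 3, with the negative trends, also held the highest CYCS values. With a correction for GC content the CYCS log2 fold change was 0.10 (adjusted p = 0.155), and that of BID, whose transcript has 49.7% GC, was −0.20 as before.

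**Figure D2:**
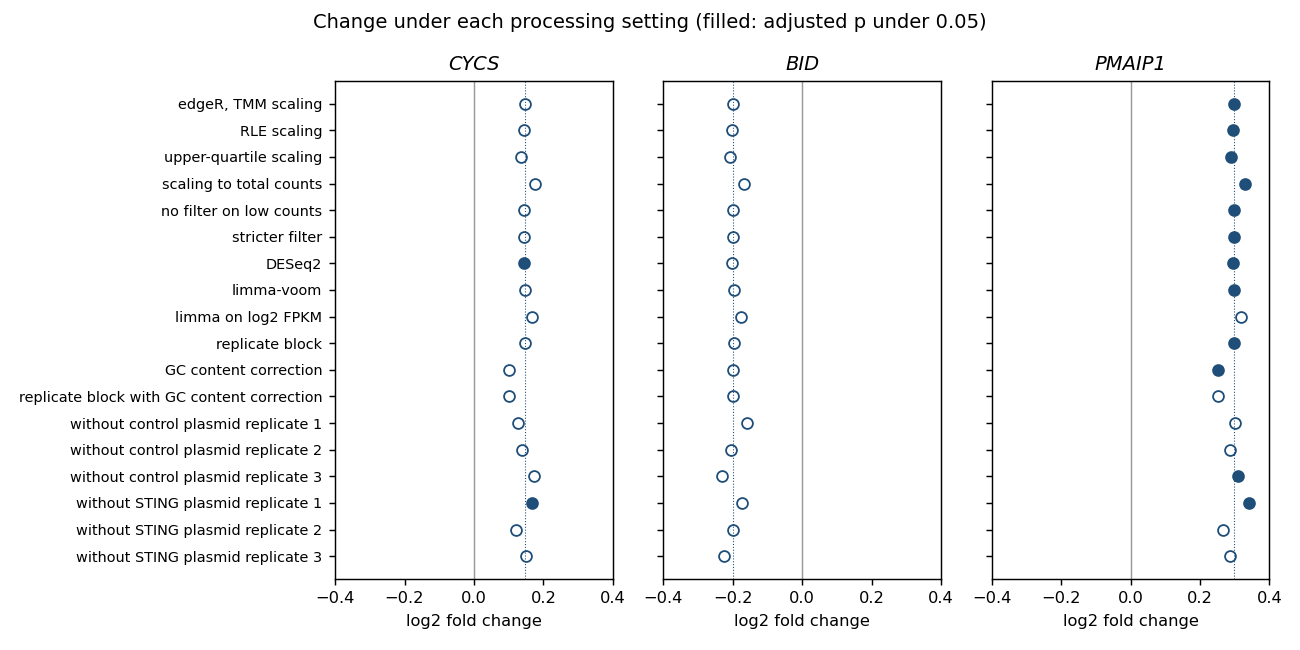
Log2 fold change of CYCS, BID and PMAIP1, STING plasmid over control plasmid, under the main analysis (top row, dotted line) and each of 17 alternatives, with filled circles where the adjusted p was under 0.05. CYCS is filled in 2 alternatives and BID in none, and PMAIP1 is filled in the main analysis and in 11 of the 17 alternatives.

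Each of the 3 members with the smallest p was set beside the 2 genes most like it, by the root mean square difference of centred log2 CPM over the 6 libraries, among 9987 genes with at least 10 CPM. For CYCS these were RTRAF (difference 0.00978) and ZNF451 (0.0127). RTRAF went from 85.7 to 95.9 CPM on average and ZNF451 from 103.2 to 113.4 CPM, and neither passed the test (adjusted p of 0.113 and 0.177, edgeR). For BID they were COL5A2 (0.0159), from 213.9 to 185.8 CPM, and RAB31 (0.0221), from 131.6 to 116.6 CPM, with adjusted p of 0.0506 and 0.0816. These genes were picked for following the member over the same 6 libraries. Their shifts therefore resemble the member's by selection and are no separate evidence of a change. Over 17 alternatives COL5A2 passed in 6 (adjusted p of 0.0017 to 0.261), RAB31 in 3 (0.00853 to 0.31), RTRAF in 1 (0.0291 to 0.355) and ZNF451 in 0 (0.0678 to 0.454). The genes nearest to BIK, TUT1 and ZBTB20, differed from it by 0.188 and 0.201. BIK itself averaged 0.949 CPM in control and 0.678 CPM in STING libraries, under the 10 CPM asked of the compared genes. The search therefore cannot tell whether BIK has a close match among genes of its own level.

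The next comparison was between genes, per length. The deposited FPKM scales reads to the length of the gene model and to the depth of the library. Over the 6 libraries MCL1 had the highest mean at 75.8 FPKM (72.2 to 80.2) and CYCS followed at 64.4 FPKM (59.5 to 71.3). BCL2L1 came next at 42.2 FPKM (41.1 to 43.9), then BAK1 at 21.0 FPKM (20.1 to 22.2) and BAD at 15.9 FPKM (14.3 to 17.7). The pro-survival genes MCL1 and BCL2L1 thus stood above the effector BAK1 and every BH3-only member in each library. BID (5.41 FPKM, 4.84 to 6.14) and BCL2L11 (4.45 FPKM, 4.11 to 4.82) followed. The lowest were BMF (1.13 FPKM, 1.08 to 1.18), BIK (0.783 FPKM, 0.54 to 1.19) and BCL2 (0.612 FPKM, 0.56 to 0.69), and the mean levels spanned 124-fold. Ranges of neighbours in this order overlapped only for BMF with BIK and for BIK with BCL2, and BMF was above BIK in 5 of 6 libraries and BIK above BCL2 in 4 of 6.

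The order depended in part on the length used. The FPKM values imply gene models of 12864 bases for BCL2 and 1034 bases for BIK. Per kilobase of the longest GENCODE v29 transcript, an alternative chosen after the data were seen, CYCS stood above MCL1 in 5 of 6 libraries, BAD above BAK1 in 5 of 6 and BCL2 above BIK in 4 of 6, each with overlapping ranges. The other places in the order were as before.

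**Figure D3:**
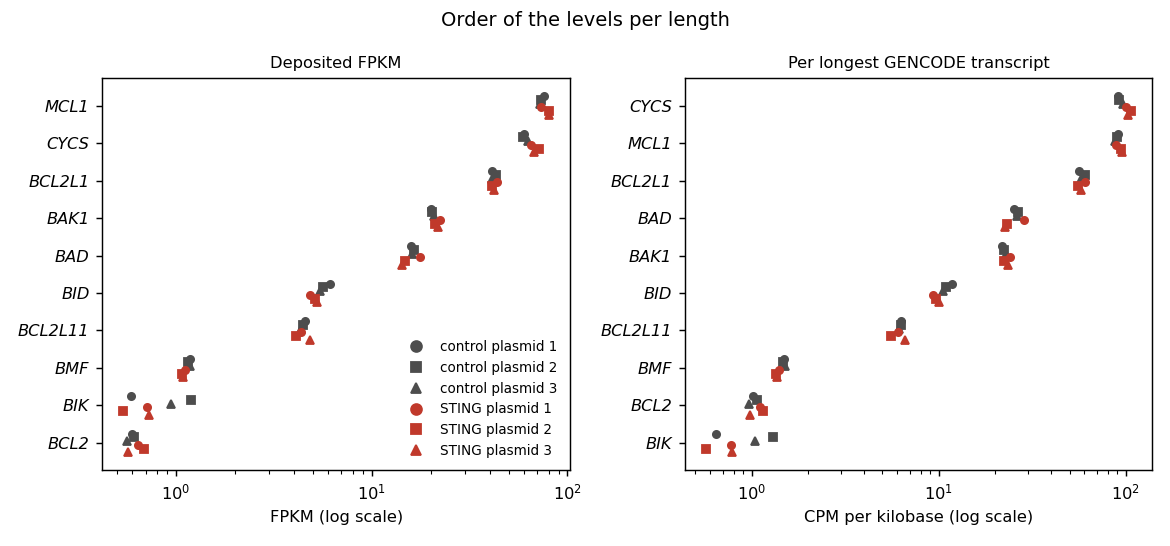
Level per length of the 10 genes in every library on log axes, ordered by the mean over 6 libraries, as deposited FPKM (left) and as CPM per kilobase of the longest GENCODE transcript (right). Grey marks are control and red marks STING libraries. MCL1, CYCS and BCL2L1 lead in both panels, and BMF, BIK and BCL2 are lowest in both.

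Within the pro-survival group MCL1 supplied most of the transcript. Its share of the summed FPKM of BCL2, BCL2L1 and MCL1 was 64.5%, 62.6% and 63.4% in the control and 62.2%, 65.6% and 65.2% in the STING libraries, on average 63.9% over the 6. BCL2L1 supplied 36.0% ± 0.989 and 35.2% ± 1.87 (SD, n = 3) in the 2 groups and BCL2 0.507% and 0.524%. Of the summed FPKM of the 5 BH3-only members BAD made up 56.8% ± 0.671 in control and 57.9% ± 3.56 in STING libraries, BID 20.2% and 19.0%, BCL2L11 15.7% and 16.6%, BMF 4.11% and 4.09% and BIK 3.18% and 2.46%. All these shares overlapped between the groups. The summed pro-survival level was 4.14, 4.06 and 4.06 times the summed BH3-only level in the control and 4.10, 4.78 and 4.70 times in the STING libraries. STING libraries 2 and 3 lay above the controls and STING library 1 between them, the same library that held the highest BAD value. These FPKM sums were not corrected for GC content. The direction depended on which BH3-only genes were summed, an alternative chosen after the data were seen. With PMAIP1, a BH3-only gene outside the 10, added to the sum, the ratios were 2.18, 2.19 and 2.13 in the control and 2.03, 2.08 and 2.12 in the STING libraries, lower in all 3. With all listed pro-survival and BH3-only genes (BCL2L2, BCL2A1 and BCL2L10 on one side, PMAIP1, BBC3 and HRK on the other) they were 2.29, 2.32 and 2.25 against 2.16, 2.21 and 2.24.

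Among the other 17 BCL2 family genes, 16 were tested, 1 rose and 0 fell (0.604% and 0.89% of all tested genes), and the median estimate was −0.02 on the log2 scale. At an unadjusted p under 0.05 there were 7 of the 16 (PMAIP1, BNIP1, BNIP3L, BCL2L14, HRK, BCL2L12 and BAX), of which 3 estimates were positive and 4 negative, against 14.4% of all tested genes. The gene that rose was PMAIP1 (NOXA), a BH3-only protein that binds MCL1 preferentially. PMAIP1 (ENSG00000141682, chr18:59899996-59904305) stood at 60.1, 59.1 and 60.8 CPM in the control and at 69.5, 77.1 and 75.0 CPM in the STING libraries, with STING library 1 the lowest of its group but above every control. Means of 60.01 ± 0.891 and 73.8 ± 3.92 CPM (SD, n = 3) gave a log2 fold change of 0.30 (SE 0.0525, adjusted p = 0.0103, edgeR). The call was lost without control library 1 or 2 (adjusted p of 0.0687 and 0.0806) and without STING library 2 or 3 (0.0574 and 0.0513). It was also lost with limma on log2 FPKM (0.106) and with the replicate block and GC correction (0.0687). The log2 fold change stayed between 0.25 and 0.34 over 17 alternatives. For scale, MCL1 was counted 5.95, 5.96 and 5.69 times as often as PMAIP1 in the control and 5.00, 4.82 and 5.02 times as often in the STING libraries, a ratio chosen after the values were seen. BNIP1, a BH3-like protein of the endoplasmic reticulum, had the next smallest p and did not pass (log2 fold change 0.26, adjusted p = 0.141).

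**Figure D4:**
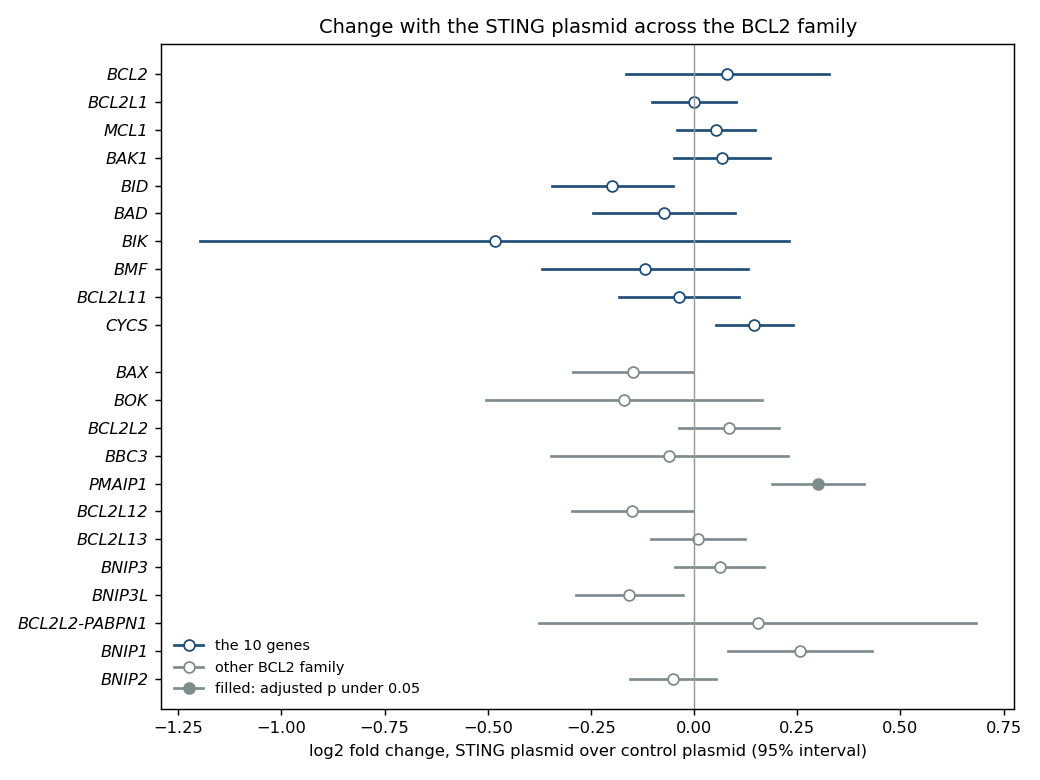
Log2 fold change, STING plasmid over control plasmid, with 95% intervals for the 10 genes (blue) and for the 12 other BCL2 family genes with a mean of at least 1 CPM (grey), with filled points for an adjusted p under 0.05. PMAIP1 at 0.30 is the single filled point, the intervals of CYCS, BID, BNIP1, BNIP3L, BAX and BCL2L12 leave out 0 without passing, and BIK has the widest interval of the 10.

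Downstream of cytochrome c release, none of the 16 tested genes of the apoptosome, caspases and inhibitors of apoptosis passed the test by edgeR, where 1.49% of all tested genes did. At an unadjusted p under 0.05 there were 2, against 14.4% of all tested genes, and the median log2 fold change was 0.02. The smallest p belonged to BIRC5, the inhibitor of apoptosis survivin, which also serves in cell division. BIRC5 averaged 137.5 ± 0.999 CPM in control and 122.8 ± 5.31 CPM in STING libraries (SD, n = 3; log2 fold change −0.16, adjusted p = 0.0978). It passed with DESeq2 (adjusted p = 0.0117) and without STING library 1 (adjusted p = 0.0203), in a range of 0.0117 to 0.312 over 17 alternatives.

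Of the 14 outer membrane partners none passed (3 at an unadjusted p under 0.05, against 14.4% of all tested genes, median −0.01). The smallest p values were those of TOMM22, a receptor of the import pore (log2 fold change −0.18, adjusted p = 0.128), and MTCH1 (−0.15, adjusted p = 0.141). MTCH1 passed without STING library 1 (adjusted p = 0.0109, in a range of 0.0109 to 0.401 over 17 alternatives). None of the 17 regulators of BCL2 family proteins passed either (2 at an unadjusted p under 0.05, against the same 14.4%, median −0.03). They were led by BTRC, a substrate receptor of a ubiquitin ligase (0.20, adjusted p = 0.12), and the transcription factor FOXO1 (0.26, adjusted p = 0.16). With DESeq2, TOMM22, MTCH1 and BTRC passed (adjusted p of 0.043, 0.0246 and 0.046, and over their alternatives 0.043 to 0.332, 0.0109 to 0.401 and 0.046 to 0.358). DESeq2 called 8.9% of all the genes it tested.

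CYCS was also set beside 14 genes that mature cytochrome c or exchange electrons with it, of which 1 fell and 0 rose (0.89% and 0.604% of all tested genes). At an unadjusted p under 0.05 there were 4, against 14.4% of all tested genes, and the median was −0.01. The gene of this list that fell was the mitochondrially encoded MT-CO1, the core subunit of cytochrome c oxidase, which takes electrons from cytochrome c. MT-CO1 averaged 12523 ± 423.3 CPM in control and 10567 ± 696.1 CPM in STING libraries (SD, n = 3; log2 fold change −0.25, SE 0.0483, adjusted p = 0.02, edgeR). This call was lost without control library 1, 2 or 3 (adjusted p of 0.138, 0.151 and 0.0674) and without STING library 1 or 2 (0.0602 and 0.0568). It was also lost with the replicate number as a block (0.0854), with that block and GC correction (0.0657) and with limma on log2 FPKM (0.16). The log2 fold change stayed between −0.27 and −0.19. MT-CO2, which holds the docking face for cytochrome c, had a log2 fold change of −0.16 and did not pass (adjusted p = 0.109). Without STING library 1 MT-CO2 passed (−0.18, adjusted p = 0.0473, in a range of 0.0126 to 0.417 over 17 alternatives). CYC1, in the complex that hands electrons to cytochrome c, was at −0.13 (adjusted p = 0.384), and HCCS, the enzyme that attaches heme to cytochrome c, at 0.11 (adjusted p = 0.487), both chosen after their values were seen. CYCS was counted 5.03, 4.68 and 4.82 times as often as CYC1 in the control and 5.16, 6.30 and 6.24 times in the STING libraries, with no overlap between the groups. Against HCCS the ratios were 11.72, 11.98 and 12.48 in the control and 11.62, 13.74 and 11.96 in the STING libraries, with overlapping groups. The longest transcript has 64.5% GC for CYC1 and 42.0% for HCCS, beside 41.6% for CYCS. These ratios were not corrected for GC content, and how often ratios of other gene pairs do not overlap was not tested.

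Over these 5 lists, 77 of 79 genes were tested, 1 rose (PMAIP1) and 1 fell (MT-CO1), beside 0.604% and 0.89% of all tested genes. Of the 77, 18 had an unadjusted p under 0.05, against 14.4% of all tested genes. Their median log2 fold change was −0.02, and the 5th and 95th percentiles over all tested genes were −0.639 and 0.578.

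**Figure D5:**
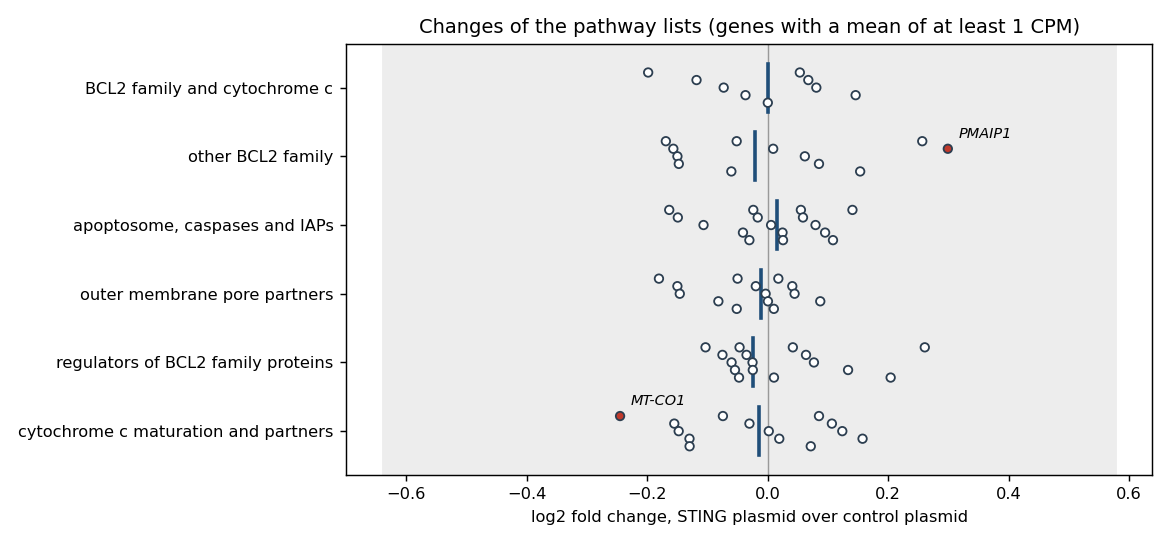
Log2 fold change, STING plasmid over control plasmid, of the genes of each list with a mean of at least 1 CPM (circles), with the median of those shown (blue bar) and the 5th to 95th percentile of all tested genes (grey band, −0.639 to 0.578). The band also counts tested genes under 1 CPM, whereas list genes under 1 CPM are left out. Left out are BIK and, among others, BCL2L14 (−2.48), BCL2A1 (−0.73) and HRK (0.67), which lie outside the band. The red points PMAIP1 and MT-CO1 are the only ones with an adjusted p under 0.05, and every point shown lies inside the band.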

How the data were processed

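The labels' protocols give Trizol for the total RNA and the Illumina TruSeq kit for the libraries, from 1 ug each, and Bowtie 0.12.2 appears in the submitters' processing notes. The sources used here do not give the counting program, its strand setting or the genome build. Each deposited table holds raw read counts and FPKM per Ensembl gene, per the file headers. GENCODE v29 held 40903 of the 42307 identifiers. A start or end matched within 1 base for 89.8% of them, and positions are therefore written as GRCh38.

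The counts went through edgeR 4.0.16 under R 4.3.3 (filterByExpr, TMM, robust quasi-likelihood fit, two-sided, Benjamini-Hochberg over 21679 genes, threshold 0.05), with all 6 libraries and no covariate. SE values, taken as |log2 fold change| over the square root of F, are approximate. Alternatives used limma 3.58.1 (voom on counts, and log2 of FPKM plus 0.1) and DESeq2 1.42.0, other scalings and filters, a replicate block, a GC correction (loess, span 0.3) and each library left out. The procedure was tested on simulated data.

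Named genes were the 10 members, STING1, from each list those past the threshold and the 2 with the smallest p, and the 2 nearest genes to each of the 3 members with the smallest p. The values of 1 gene that this rule named are not reported here. BAX, CYC1 and HCCS were added after their values were seen. The members and lists were chosen with earlier results of these data known. BCL2L10 did not pass the filter on low counts, and BIRC7, AQP4 and MOG were not analysed here.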

Additional observations from a re-analysis of the deposited data

How the results depend on the processing

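The number of genes past the threshold was 324 in the main analysis (131 higher, 193 lower). It was 686 with a stricter filter of 1 CPM, 1032 with DESeq2, 137 with limma-voom, 13 with limma on log2 FPKM, 120 with the replicate block and 49 with the replicate block and GC content correction, and 60 to 741 with 1 library left out (741 without STING library 1). With scaling to total counts 246 were higher and 138 lower. Among the 10 members 0 were called in the main analysis, 1 with DESeq2, and 0 to 1 with a library left out. In the other pathway lists 2 were called, against 7 with DESeq2, 0 with limma on log2 FPKM, 1 with the replicate block, 0 with the replicate block and GC content correction, and 0 to 6 with a library left out. The 6 came without STING library 1. Of all genes, 1.49% were called in the main analysis, 8.9% with DESeq2 and 3.27% without STING library 1. The mean share of MCL1 in the summed pro-survival level was 63.9% and 60.7% per longest GENCODE transcript, and 63.6% to 64.2% with a library left out.

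The BCL2L1 estimate, near 0 throughout, changed sign with RLE scaling (−0.0026), upper-quartile scaling (−0.00955), no filter (−0.00157), the stricter filter (−0.00174), DESeq2 (−0.00257) and without control library 1 (−0.0206), control library 3 (−0.00883) or STING library 1 (−0.0321), and ranged from −0.0321 to 0.0298 with a library left out. The BCL2L11 estimate was 0.0219 without STING library 2, in a range of −0.104 to 0.0219 with a library left out. The median of the 10 members was 0.0117 with scaling to total counts, 0.0111 with GC correction, 0.00132 on log2 FPKM, 0.00935 with the replicate block and GC correction, and 0.0251 without STING library 2. The pro-survival over BH3-only ratio differed between group means by 0.15 on the log2 scale, and by −0.0638 with PMAIP1 among the BH3-only genes and −0.0572 with all listed genes. BIK gave no value under the stricter filter and no adjusted p with DESeq2. GFAP did not pass with GC content correction (adjusted p = 0.0615), no filter (0.081) or limma on log2 FPKM (0.1003). STING1 did not pass with limma on log2 FPKM (adjusted p = 0.0732). The cause was not tested.

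Whether the replicate numbers pair the libraries is not stated in the labels. Deviations of same-numbered control and STING libraries correlated at 0.0551, 0.0231 and 0.0172, and those of differently numbered ones at −0.04 to 0.0192. These values do not settle the pairing. With the replicate block CYCS had an adjusted p of 0.265 and BID of 0.316. With the block PTPRC, of the other cell type markers, passed (−1.13, adjusted p = 0.0398, against 0.575 without it). BIK had 42 to 88 counts per library and the widest interval of the members, and the intervals of BCL2 and BMF also reached outside 0.8-fold to 1.25-fold, as did that of BID.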
